A study of Mus musculus with 25 samples.

Results

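Sebum is made by the sebaceous gland, which opens into the hair follicle, and most of the 10 genes described here serve its lipid synthesis, storage or control. All 10 were chosen by symbol, and all 10 were found among the 24015 gene symbols of the tumour table and among the 24015 symbols of the cell table. Sebocytes fill with lipid droplets and burst to release wax esters, triglycerides and sterol esters onto hair and skin. Scd1 and Scd3 are stearoyl-CoA desaturases, which place a double bond in saturated fatty acids, and Elovl3 lengthens very long fatty acids. Far2 reduces fatty acyl-CoA to fatty alcohol, Awat2 joins fatty alcohols to acyl chains as wax esters, Dgat2 makes triglycerides and Soat1 makes cholesteryl esters. Cidea promotes fusion of lipid droplets, Mgst1 is a membrane-bound glutathione transferase of the MAPEG family, and Mc5r is a melanocortin receptor of the gland. Several of these genes also work elsewhere, Cidea in brown fat and Scd1, Dgat2 and Soat1 in many lipid-making tissues.

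The series compared resistant with sensitive mouse basal cell carcinomas, skin tumours driven by Hedgehog signalling, and ASZ001 cells given either of 2 compounds with cells given vehicle. The tumours, 4 resistant and 4 sensitive, came from C57BL6 mice that were Ptch+/-, with 1 intact Ptch allele, carried a K14 Cre-ER, a tamoxifen-inducible Cre under the keratin 14 promoter, and were p53 fl/fl, with floxed p53. Both tumour groups came from mice dosed with a Smo inhibitor by gavage, so neither is an untreated control. The age of the mice, the inhibitor's name, its dose and its duration were not stated in the labels, and a K14-driven Cre acts in basal keratinocytes and in the cells that descend from them. ASZ001 is a mouse basal cell carcinoma line, labelled as resistant cells, and 3 libraries each came from cells with CCG-1423 (described as an inhibitor of signalling through MRTF and SRF), cells with vismodegib (a Smo inhibitor) and cells with vehicle. All 9 come from a single cell line, and the labels state no dose or time. Of 25 samples, 17 were RNA libraries and are used here, and the 8 exome samples were not analysed.

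Values are normalised counts, read counts divided by a size factor for each library. Reads at genes numbered 17537094 to 20014426 in resistant tumours and 8111252 to 14161398 in sensitive tumours, so that 3 reads correspond to 2.09 to 2.62 normalised counts in resistant tumours and 3.04 to 4.97 in sensitive tumours. In the cells reads numbered 32024887 to 41040633 with CCG-1423, 30455530 to 35561668 with vismodegib and 32192090 to 44017757 with vehicle, and 3 reads correspond to 2.45 to 3.40 normalised counts. These floors and the intervals given with shares cover counting error only. The library labelled sensitive tumour 4 stood apart from its group. It fell beside the 4 resistant tumours on the first principal component, which held 65.9% of the variance, and it had no reads of the 4 Y-linked genes, which were present in sensitive tumours 1 to 3 and at 0 in every resistant tumour. Whether its label is right was not tested, and a wrong label would change what the values with and without it mean. Each tumour comparison is therefore given over 8 tumours and without sensitive tumour 4. In the second comparison neither Y-linked expression nor that of Xist, an X-linked gene, can be told apart from the resistance group. Of Xist, sensitive tumour 1 had 2553 reads, sensitive tumour 2 had 1436 and sensitive tumour 3 had 756. Sensitive tumour 4 had 59957, and resistant tumours 1 to 4 had 92089, 82462, 78870 and 107174. In that comparison the part of sex in the member values, X-linked Awat2 among them, was not tested. Krt14 and Krt17, keratins of basal cells and of this tumour, were present in all tumours and cells, and Gli1, a Hedgehog target, was at 1456 to 3541 in resistant and 532 to 1976 in sensitive tumours.

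The label of a sebaceous gland programme held only in part. In all 8 tumours Elovl3 stayed at or below 4.97 normalised counts and Awat1, a wax synthase of the gland, at or below 4.24, while Krt79, a keratin of the upper follicle and sebaceous duct, was at 276 to 1308 in resistant and 2396 to 5635 in sensitive tumours. In the ASZ001 cells Pparg, the receptor that drives sebocyte maturation, was at or below 2.90 in all 9 libraries, and Krt79 at or below 2.45. Elovl3, Cidea and Mc5r were at or below 2.13 in the cells, while Scd1, Soat1, Dgat2 and Mgst1 were well expressed there. Other genes of the gland's list were expressed in the cells. Of 13 sebaceous regulators and markers, 9 were tested there. The 13 summed to 11516 to 11910 with CCG-1423, 20107 to 20433 with vismodegib and 18956 to 19133 with vehicle. In the tumours the 13 summed to 8141 to 15779 in resistant tumours and 16300 to 17783 in sensitive tumours 1 to 3. On this sum sensitive tumour 4, at 17738, lay within the range of the other sensitive tumours and above all resistant ones.

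Promoter windows, 250 bases before to 50 after the start of transcription, were found in RefSeq (GRCm38.p6) for 5 of the 10 genes, in 7 windows. Those of Awat2, Scd3 and Soat1, which were called between tumour groups only without sensitive tumour 4, and of Mgst1, which differed most in the cells, are shown so that their letters can be set side by side. Capitals mark matches, on either strand, to CCAAT (the NF-Y box) or GGGCGG (the GC box).
Awat2, chrX:100442668-100442967, minus strand: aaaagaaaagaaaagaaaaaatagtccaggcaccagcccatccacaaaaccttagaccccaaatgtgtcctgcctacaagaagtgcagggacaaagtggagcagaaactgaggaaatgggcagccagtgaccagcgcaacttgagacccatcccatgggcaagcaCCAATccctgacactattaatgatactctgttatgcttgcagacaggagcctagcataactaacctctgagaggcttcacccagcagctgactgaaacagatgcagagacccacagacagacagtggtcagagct
Scd3, chr19:44203038-44203337, plus strand: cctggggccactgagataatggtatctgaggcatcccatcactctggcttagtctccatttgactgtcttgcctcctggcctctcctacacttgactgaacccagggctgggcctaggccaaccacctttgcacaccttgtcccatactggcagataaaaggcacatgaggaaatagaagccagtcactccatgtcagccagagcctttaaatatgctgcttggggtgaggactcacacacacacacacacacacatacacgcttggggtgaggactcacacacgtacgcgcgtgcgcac
Soat1, chr1:156474279-156474578, minus strand: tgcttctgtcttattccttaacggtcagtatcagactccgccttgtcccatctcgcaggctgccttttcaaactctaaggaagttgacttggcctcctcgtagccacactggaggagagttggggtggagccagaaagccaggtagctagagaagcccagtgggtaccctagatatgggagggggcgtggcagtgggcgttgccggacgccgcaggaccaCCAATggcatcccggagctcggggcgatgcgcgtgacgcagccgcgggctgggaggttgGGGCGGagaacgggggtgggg
Mgst1, chr6:138140277-138140576, plus strand: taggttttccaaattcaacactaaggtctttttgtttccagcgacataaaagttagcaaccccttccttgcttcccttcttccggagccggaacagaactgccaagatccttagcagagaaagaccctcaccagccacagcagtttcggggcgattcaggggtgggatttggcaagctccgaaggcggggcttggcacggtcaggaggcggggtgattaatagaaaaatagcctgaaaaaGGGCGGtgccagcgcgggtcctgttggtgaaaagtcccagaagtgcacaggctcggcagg
Awat2 held CCAAT 85 bases before its start and Soat1 held it 30 bases before. The GC box stood 30 bases after the start in Soat1 and 10 bases before it in Mgst1. Counted in bases from the start, with a minus sign before it, a second Awat2 window, not shown, held CCAAT at -121 and the GC box at -70, and the Far2 window held the GC box at -126 and -56. The Scd3 window matched none of the 5 motifs searched. The others were TATAAA (the TATA box), TCACNCCAC (a sterol regulatory element) and the direct repeat of nuclear receptors with a single base between its half-sites, and no member window held any of these 3. Over all 32851 promoter windows of the table, 37.4% held CCAAT, 35.7% GGGCGG, 13.6% TATAAA, 1.24% TCACNCCAC and 0.0396% the direct repeat. These matches describe letters in the windows, and no binding was measured.

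Over all 8 tumours, none of the 7 sebaceous lipid genes tested was called different between resistant and sensitive tumours by limma at an adjusted p of 0.05. Calls were rare in that comparison: 0.113% of the 15076 genes tested were called, and 3789 had an unadjusted p under 0.05. Elovl3, Cidea and Mc5r had too few reads to be tested. EdgeR called 0 of all genes tested and DESeq2 called 1632, and neither called any of the 7 members. Without sensitive tumour 4, limma called 3 of those 7 members, Awat2 and Scd3 lower and Soat1 higher in resistant tumours. Of all 15479 genes tested there, 40.0% were called, so the share of members called lay near that of genes in general. Groups did not overlap for 4 of those 7 members and for 47.6% of the genes. Cidea was tested and called lower as well, but it passed the filter only through the sensitive tumours and so had to differ, and it is left out of these counts. Lower RNA in a bulk tumour can come from fewer cells of a type or from less RNA per cell, and these cannot be told apart here. The labels do not say whether replicates come from separate animals or cultures, so p-values measure the spread between these samples.

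**Figure D1:**
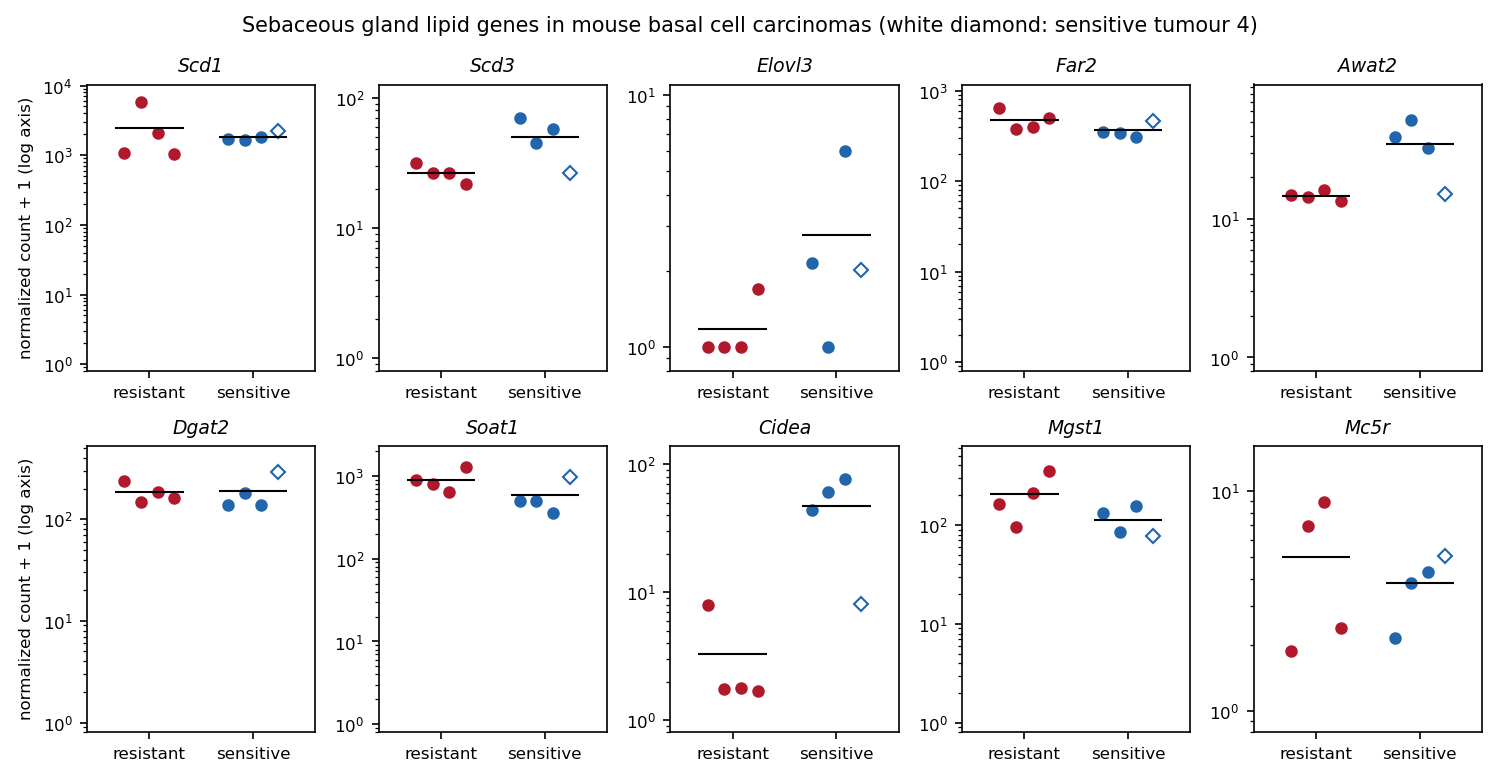
Normalised count plus 1 (log axis) of each of the 10 genes in 4 resistant (red) and 4 sensitive (blue) tumours, 1 point per tumour, with the arithmetic mean as a line and sensitive tumour 4 as a white diamond. Cidea lay at 42.6 to 76.2 in sensitive tumours 1 to 3 and at or below 7.09 in the other 5 tumours, and sensitive tumour 4 lay in the resistant range of Awat2 and Scd3.

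Scd1, the widely expressed desaturase, had 1056, 5742, 2059 and 1024 normalised counts in resistant tumours 1 to 4, against 1698, 1657, 1798 and 2238 in sensitive tumours 1 to 4. Resistant tumour 2 stood high, the groups overlapped, and the log2 fold change was 0.04 ± 0.50 (SE) over 8 tumours and 0.14 ± 0.54 without sensitive tumour 4, with adjusted p = 0.960 and 0.857. The direction of Scd1 depends on that library: without resistant tumour 2 it was -0.49 over the other 7 tumours. Scd3, described in mouse as a skin and sebocyte desaturase, had 30.6, 25.2, 25.4 and 20.9 in resistant tumours 1 to 4, against 69.1, 43.8, 56.3 and 25.3 in sensitive tumours 1 to 4. Every resistant tumour lay below sensitive tumours 1 to 3, while sensitive tumour 4 lay among the resistant ones. In reads, Scd3 had 35, 34, 32 and 30 in resistant tumours 1 to 4, against 60, 31, 34 and 25 in sensitive tumours 1 to 4. Sensitive tumours 2 and 3 thus stood apart in Scd3 only after division by the size factors. Its log2 fold change was -0.83 ± 0.36 over 8 tumours (adjusted p = 0.196) and -1.10 ± 0.28 without sensitive tumour 4 (adjusted p = 0.0156). Leaving out sensitive tumour 1 as well ended that call, with -0.95 and adjusted p = 0.0678. Both genes sit beside Scd2 and Scd4 on chromosome 19 and are near-identical in parts, so the authors' counting could split or share reads among them. Pkd2l1, which overlaps Scd3 in the reference, was at or below 5.18 in resistant and 5.07 in sensitive tumours. Scd2, a desaturase of many tissues, averaged 8765 ± 823 in resistant tumours and 4048 ± 505 in sensitive tumours 1 to 3 (SD, n = 4 and 3), a log2 fold change of 1.12 ± 0.14 with adjusted p = 0.00081.

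The balance within the pair shows Scd3 as a minor form. Scd3 made up 2.82%, 0.437%, 1.22% and 2.00% of the reads of Scd1 and Scd3 together in resistant tumours 1 to 4, against 3.91%, 2.57%, 3.04% and 1.12% in sensitive tumours 1 to 4. Resistant tumour 1, at 2.82% (exact 95% binomial interval 1.97 to 3.89), lay within the range of sensitive tumours 1 to 3, so the groups overlapped on this measure with or without sensitive tumour 4. The low share of resistant tumour 2 stood beside its high Scd1. In the cells the share was 0.0193% to 0.0995% with CCG-1423, 0.0464% to 0.0781% with vismodegib and 0.0740% to 0.124% with vehicle, from 2 to 14 reads of Scd3 per library. These cell shares were all below the lowest tumour share, although the tables were normalised separately and only shares within a library are set side by side.

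**Figure D2:**
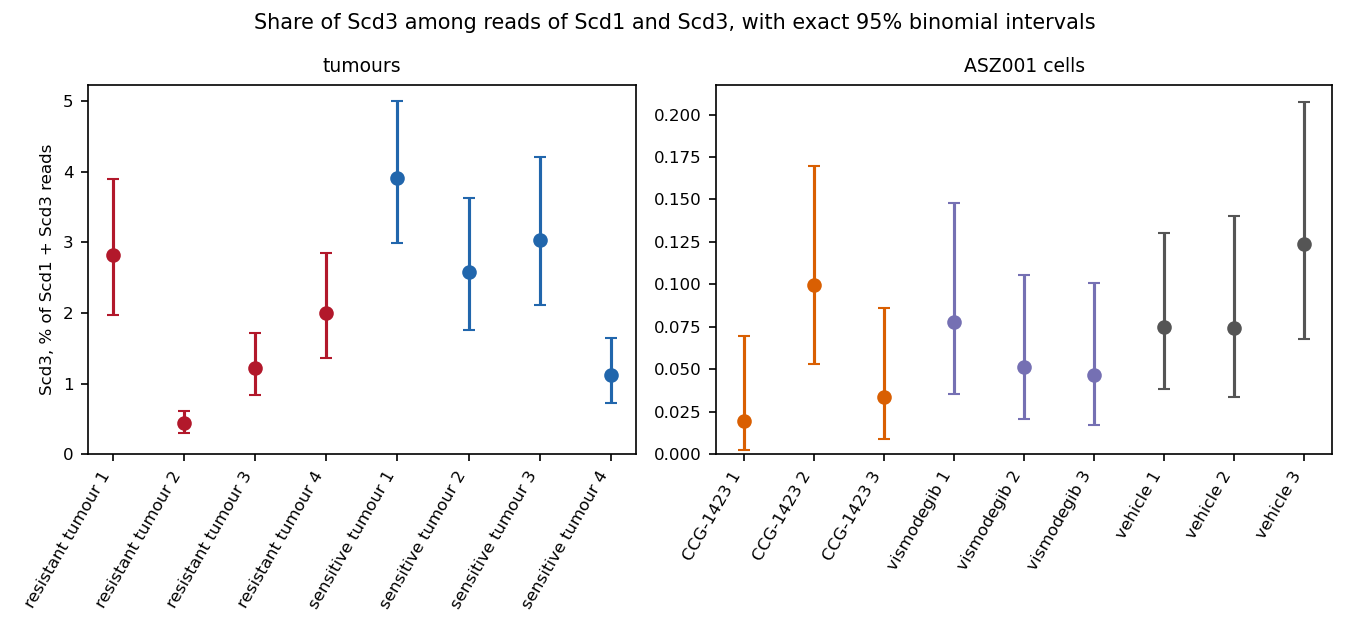
Share of Scd3 in the reads of Scd1 plus Scd3 (vertical axis, percent, a different scale in each panel) for each of 17 libraries, with exact 95% binomial intervals. Tumour shares ran from 0.437% to 3.91% and cell shares from 0.0193% to 0.124%.

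Elovl3, the elongase most closely tied to sebum and fur lipids in mice, was at or near 0: resistant tumours had 0, 0, 0 and 0.698 normalised counts, and sensitive tumours 1.15, 0, 4.97 and 1.01. That is 1 read in all resistant tumours together with at most 3 reads in any sensitive tumour, and no difference was detectable at this depth. Among its relatives, Elovl4, which makes the very long chains of barrier lipids, averaged 128 ± 51.8 in resistant tumours and 426 ± 141 in sensitive tumours 1 to 3 (log2 fold change -1.79 ± 0.38, adjusted p = 0.0066).

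Of the genes that make alcohols and esters, Awat2 fell and Soat1 rose without sensitive tumour 4, while Far2 and Dgat2 did not pass the test. Far2 had 648, 373, 397 and 493 in resistant tumours 1 to 4, against 344, 339, 305 and 459 in sensitive tumours 1 to 4. Each resistant tumour was above sensitive tumours 1 to 3, but with sensitive tumour 4 the groups overlapped, and the log2 fold change of 0.50 ± 0.21 without that tumour missed the threshold (adjusted p = 0.0862). Far2 overlaps Ergic2 in the reference, which was at 1115 to 1690.2 in resistant and 907 to 1609 in sensitive tumours, above Far2, so shared reads could alter its values. Awat2, the wax synthase, had 14.0, 13.3, 15.1 and 12.6 in resistant tumours 1 to 4, against 38.0, 50.9, 31.5 and 14.2 in sensitive tumours 1 to 4. The 4 resistant tumours and sensitive tumour 4 lay within 12.6 to 15.1, below the other 3 sensitive tumours. In reads, Awat2 had 16, 18, 19 and 18 in resistant tumours 1 to 4, against 33, 36, 19 and 14 in sensitive tumours 1 to 4. Sensitive tumour 3 thus stood apart in Awat2 only after division by the size factors. The log2 fold change was -1.10 ± 0.42 over 8 tumours (adjusted p = 0.166) and -1.46 ± 0.30 without sensitive tumour 4 (adjusted p = 0.0063). Awat2 overlaps Otud6a in the reference, which was at or below 2.38 in resistant and 12.7 in sensitive tumours, and the labels do not say whether counting used strand. Dgat2 had 236, 145, 185 and 162 in resistant tumours 1 to 4, against 138, 181, 137 and 289.9 in sensitive tumours 1 to 4, so its groups overlapped and its log2 fold change was 0.01 ± 0.29 over 8 tumours. Soat1, which stores cholesterol as esters, had 896, 784, 629 and 1268 in resistant tumours 1 to 4, against 493, 497, 349 and 969 in sensitive tumours 1 to 4. Sensitive tumour 4 lay above 3 of the resistant tumours, and the other 3 sensitive tumours lay below all of them. Its log2 fold change was 0.69 ± 0.33 over 8 tumours (adjusted p = 0.222) and 0.97 ± 0.25 without sensitive tumour 4 (adjusted p = 0.0149). Without sensitive tumour 3 as well the call was lost, with 0.80 and adjusted p = 0.0564.

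Cidea showed a wide gap between most tumours of the groups. It had 6.995, 0.741, 0.793 and 0.698 normalised counts in resistant tumours 1 to 4, from 8 reads in the first and 1 read in each of the others, against 42.6, 59.3, 76.2 and 7.09 in sensitive tumours 1 to 4. Its groups did not overlap in normalised counts even with sensitive tumour 4, whose value stood just above that of resistant tumour 1. In reads the order was the reverse, 7 in sensitive tumour 4 and 8 in resistant tumour 1, so this separation rests on the size factors. Among the 15076 genes tested, 7.90% had groups that did not overlap. Cidea itself was at 10 normalised counts or more in only 3 tumours and so was not tested over 8 tumours. With no filter on low values its log2 fold change was -3.81 ± 0.81 and its adjusted p 0.119. Without sensitive tumour 4 it was -4.53 ± 0.62 with adjusted p = 0.0010. Cidea passed the filter there only through the sensitive tumours, so a difference was built into its being tested. Its overlapping neighbour in the reference, B430212C06Rik, was at 10.3 to 21.0 in resistant and 20.3 to 33.1 in sensitive tumours. Cideb, a relative that also acts on lipid droplets, went the other way, with 69.9 ± 5.03 in resistant tumours and 27.6 ± 7.35 in sensitive tumours 1 to 3 (log2 fold change 1.34 ± 0.27, adjusted p = 0.0051).

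Mgst1 had 162, 95.5, 211 and 349 in resistant tumours 1 to 4, against 132, 84.8, 156 and 77.0 in sensitive tumours 1 to 4. The groups overlapped, resistant tumour 4 was highest, and the log2 fold change was 0.76 ± 0.41 over 8 tumours (adjusted p = 0.260) and 0.60 ± 0.42 without sensitive tumour 4 (adjusted p = 0.277). Of the 4 other MAPEG genes tested without sensitive tumour 4, 2 rose, where 20.6% of all genes were called higher. Over 8 tumours 0 of the 4 tested were called. Ptges, a prostaglandin E synthase, averaged 1164 ± 361 in resistant tumours and 242 ± 33.2 in sensitive tumours 1 to 3, and Alox5ap, which serves leukotriene synthesis, averaged 351 ± 134 in resistant tumours and 149 ± 55.9 in sensitive tumours 1 to 3. Mc5r had 0.874, 5.93, 7.93 and 1.40 in the resistant tumours, from 1 to 10 reads, against 1.15, 2.83, 3.31 and 4.05 in the sensitive tumours. Resistant tumours 2 and 3 were highest, the groups overlapped, and the gene was not tested. Of the other melanocortin genes, Pomc, the hormone precursor, was at or below 2.38 and Mrap2, an accessory protein of melanocortin receptors, at 2.96 to 10.5 in resistant and 5.07 to 17.3 in sensitive tumours. Only Agrp, an antagonist of melanocortin receptors in the brain, passed the filter, at 14.8 to 34.1 in resistant and 13.2 to 41.6 in sensitive tumours.

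**Figure D3:**
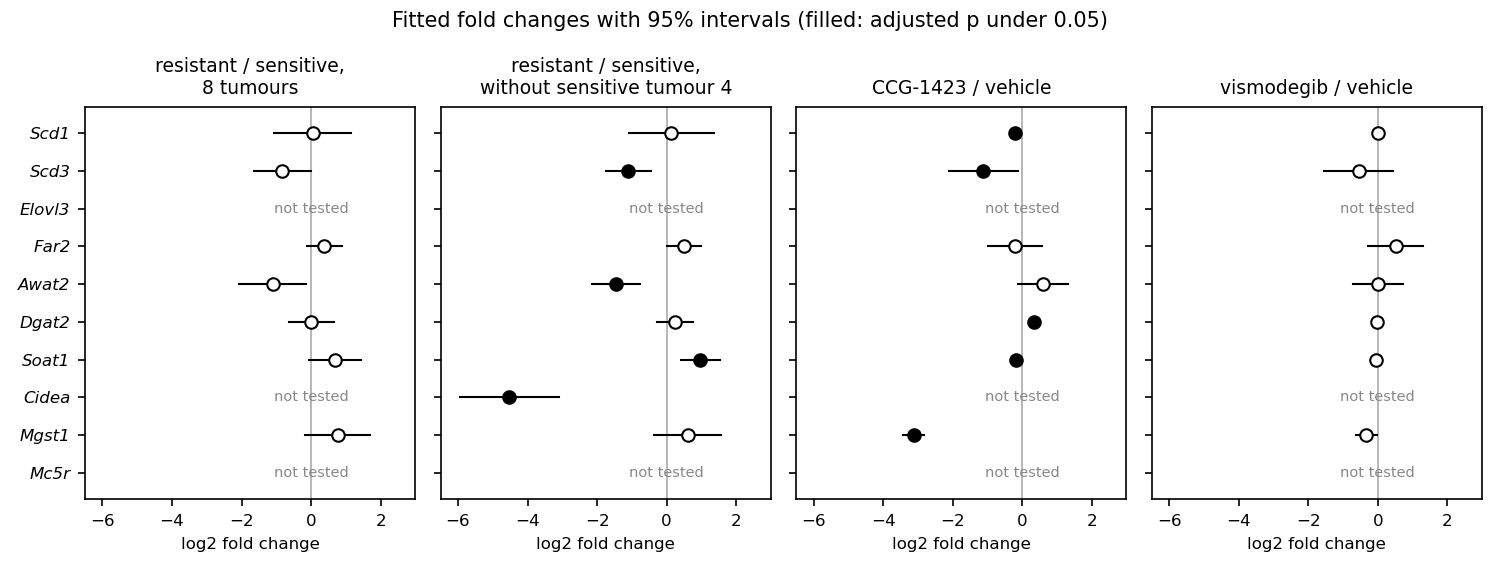
Log2 fold change of each member (points) with its 95% interval (lines) in 4 comparisons, filled where the adjusted p is under 0.05 and marked where the gene was not tested. No member is filled over 8 tumours or for vismodegib, and 5 are filled for CCG-1423, where Mgst1 stands at -3.12. Without sensitive tumour 4, 4 are filled, among them Cidea, which passed the filter only through the sensitive tumours.

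The wider lists give the setting of these members in the comparison without sensitive tumour 4. Of all genes tested there, 20.6% were called higher and 19.4% lower. Of 13 sebaceous regulators and markers, all tested, 2 rose, 4 fell and 7 were not called, with a median log2 fold change of -0.38 against 0.02 over all genes. Among those that fell was Krt79, at 735 ± 455 in resistant tumours and 4490 ± 1816 in sensitive tumours 1 to 3. Cyp4f39, an enzyme of skin acylceramide synthesis, was counted there too, at 6.65 ± 4.95 in resistant tumours and 77.2 ± 18.2 in sensitive tumours 1 to 3. Cyp4f39 could not pass the filter without the sensitive tumours, so a difference was partly built into its being tested. Rxra, the partner of nuclear receptors, and Plin2, a coat protein of lipid droplets, fell as well, by 1.36 ± 0.21 and 0.93 ± 0.22 on the log2 scale. Fabp5, a fatty acid carrier of epidermis, rose by 1.81 ± 0.40. Of 23 tested genes of fatty acid synthesis, desaturation and elongation, 5 rose and 3 fell. The rises included Fads2, the delta-6 desaturase, at 2.96 ± 0.39, and Acsl4, an acyl-CoA synthetase for polyunsaturated chains, at 2.42 ± 0.36. Of 12 tested genes of triglyceride, wax and sterol ester synthesis, 0 rose and 4 fell, among them Gpam and Agpat9, which both start glycerolipid synthesis, with log2 fold changes of -1.64 ± 0.18 and -2.02 ± 0.29. Of 12 tested droplet proteins and lipases, 2 rose, Hilpda and Cideb, and 2 fell, Plin2 and Plin4. Of 13 tested lipid regulators 3 rose and 3 fell, with Ppargc1a at 2.31 ± 0.42 and Ppara, the receptor that drives fatty acid oxidation, at -3.21 ± 0.55. Over 8 tumours none of these list genes was called.

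**Figure D4:**
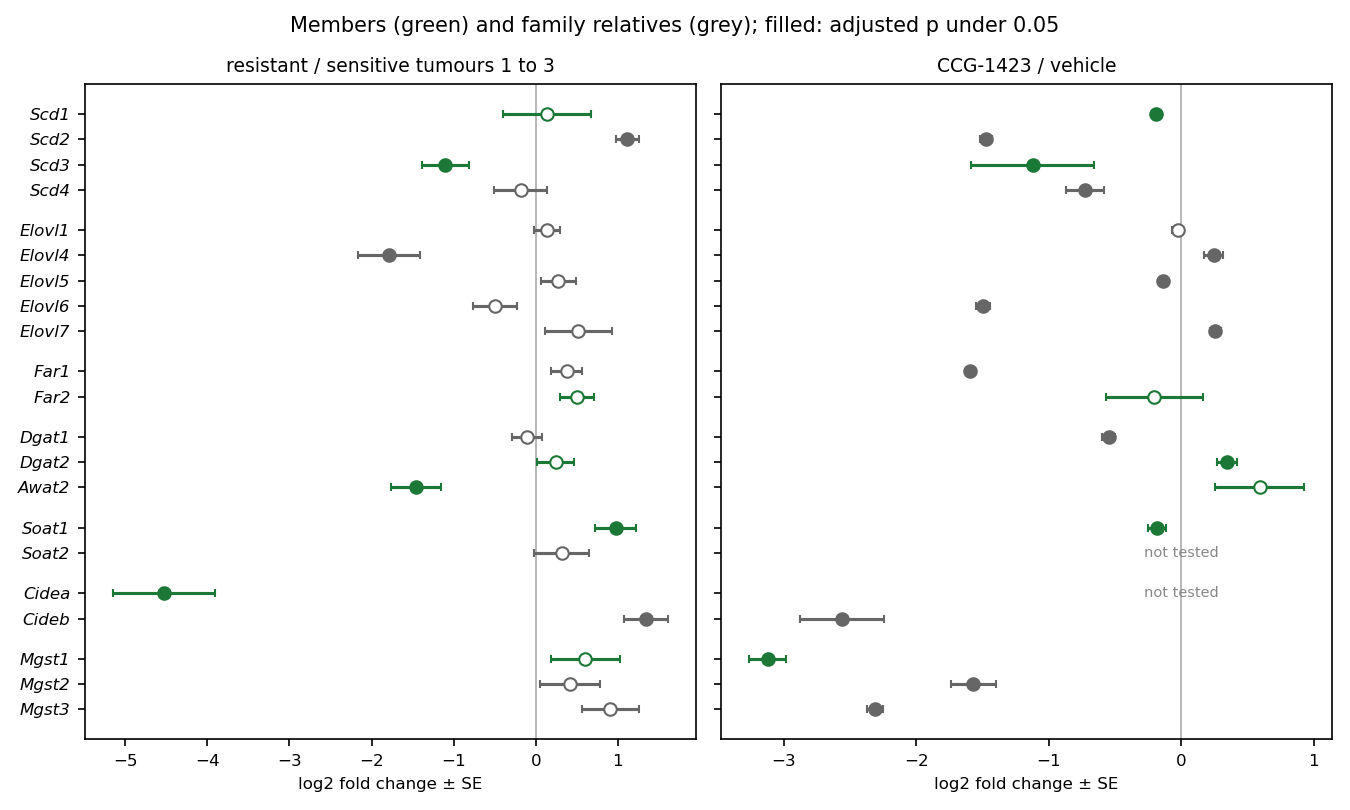
Log2 fold change ± SE of members (green) and relatives of the same families (grey), filled where the adjusted p is under 0.05, for resistant against sensitive tumours 1 to 3 (left) and for CCG-1423 against vehicle (right). Scd2 lies at 1.12 on the left and -1.47 on the right, and Mgst1 with Mgst2 and Mgst3 lie between -3.12 and -1.57 on the right.

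Markers of other cells moved with the tumour groups. The summed level of 7 differentiated keratinocyte markers was 380 to 921 in resistant tumours and 5519 to 9165 in sensitive tumours 1 to 3, with 1196 in sensitive tumour 4, and 5 of the 7 fell without that tumour. The summed level of 8 hair shaft and root sheath markers was 508 to 740 in resistant tumours and 1174 to 1373 in sensitive tumours 1 to 3, with 599 in sensitive tumour 4, and 3 of the 4 tested fell. Their part in the lower Awat2, Scd3 and Cidea was not tested. For fat, which also expresses Cidea, Adipoq, Plin1, Cidec and Pck1 were low, at or below 9.94 in every tumour, the highest value being above the floor of 3 reads. Ucp1 and Cox8b were at or below 2.03 in every tumour, at or near 0. The 8 brown adipocyte markers summed to 4057 to 11858 in resistant tumours and 878 to 1409 in sensitive tumours 1 to 3, with 3206 in sensitive tumour 4, with 2 of the 4 tested, Dio2 and Ppargc1a, called higher. The 11 adipocyte markers summed to 654 to 1028 in resistant tumours and 1013 to 1411 in sensitive tumours 1 to 3, with 501 in sensitive tumour 4, and of the 4 tested Fabp4 rose and Lpl fell. The 7 basal keratinocyte markers summed to 32442 to 92179 in resistant tumours and 155259 to 226665 in sensitive tumours 1 to 3, with 83576 in sensitive tumour 4, and 5 of the 7 fell. The 6 melanocyte markers summed to 394 to 555 in resistant tumours and 832 to 942 in sensitive tumours 1 to 3, with 414 in sensitive tumour 4, and 3 of the 5 tested fell. The 6 endothelial markers summed to 2540.5 to 4750 in resistant tumours and 1750 to 1978 in sensitive tumours 1 to 3, with 2800.5 in sensitive tumour 4, and 3 of the 6 rose. None of 9 macrophage markers was called in either comparison, but they summed to 91884 in resistant tumour 4 and to 9428 to 27356 in the other 7 tumours, and resistant tumour 4 also had the highest Mgst1 and Soat1. Without both resistant tumour 4 and sensitive tumour 4, the log2 fold change was 0.79 for Soat1 (limma, adjusted p = 0.0191) and 0.30 for Mgst1 (adjusted p = 0.527). The part of all these markers in the other member values was not tested.

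In ASZ001 cells with CCG-1423, Mgst1 was at 0.110 times its vehicle level and Dgat2 was slightly higher. By limma 5 of the 7 members tested were called between CCG-1423 and vehicle: Mgst1, Scd1, Soat1 and Scd3 lower and Dgat2 higher. With this compound 85.3% of the 12775 genes tested were called, so the members' calls are no more frequent than those of genes in general. A change of at least 2-fold was seen with a call in 26.9% of genes, and among members in Mgst1 and Scd3. With vismodegib 0 of the 7 members were called, where 5.50% of genes were called and 2357 had an unadjusted p under 0.05. EdgeR and DESeq2 also called 0 members for vismodegib. Both compounds were set against the same 3 vehicle libraries. All 7 basal keratinocyte markers fell with CCG-1423, and their summed level was 292895 to 305982 with CCG-1423, 1333028 to 1361008 with vismodegib and 1355936 to 1386187 with vehicle, whose part in the member values was not tested.

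**Figure D5:**
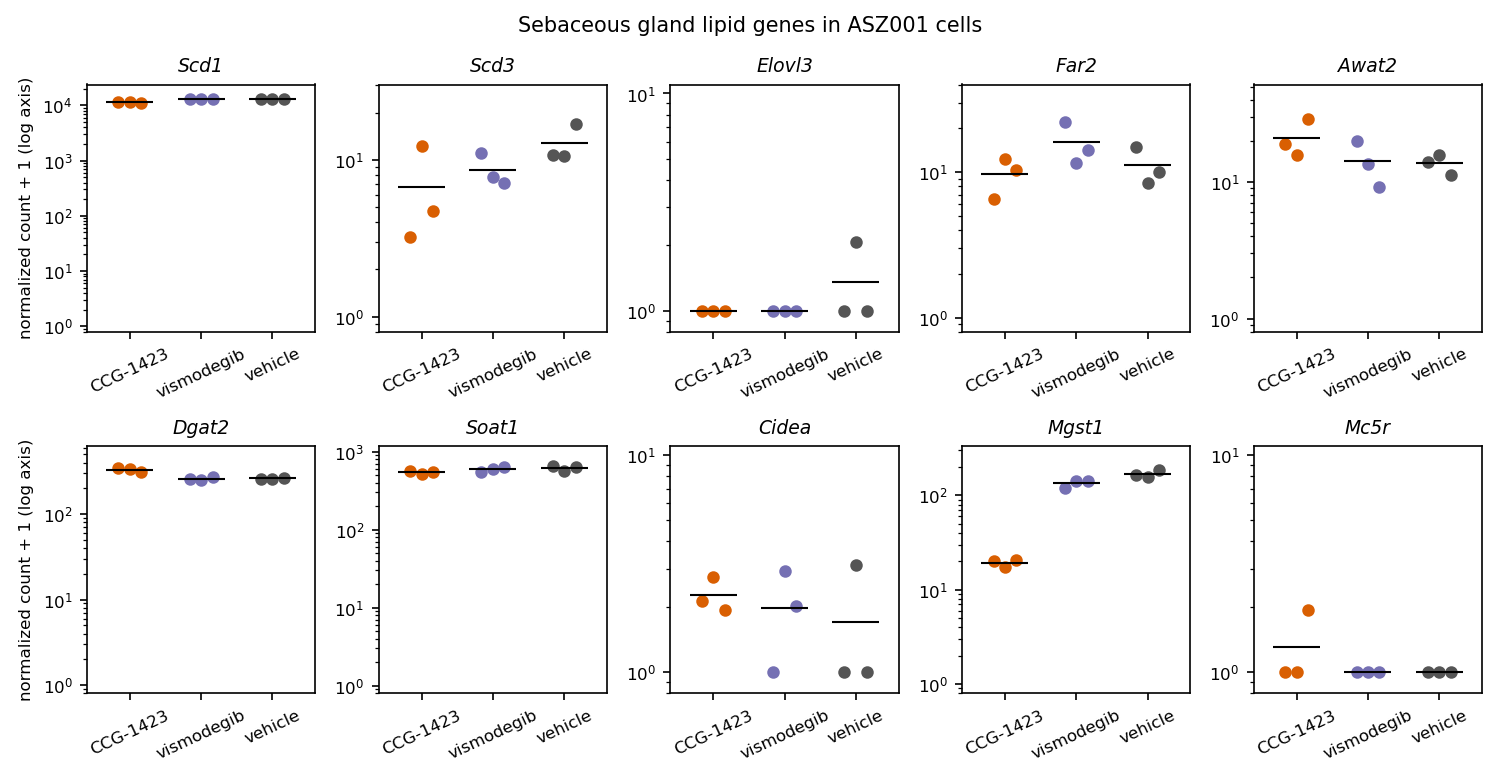
Normalised count plus 1 (log axis) of each of the 10 genes in ASZ001 cells with CCG-1423, vismodegib or vehicle, 3 libraries each, 1 point per library with the arithmetic mean as a line. Mgst1 lay at 16.4 to 19.5 with CCG-1423, 117 to 142 with vismodegib and 154 to 184 with vehicle.

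Mgst1 had 19.0, 16.4 and 19.5 normalised counts with CCG-1423, 117, 141 and 142 with vismodegib, and 163, 154 and 184 with vehicle. The 3 groups were separate, with vismodegib just below vehicle. Mgst1 fell by 3.12 ± 0.14 on the log2 scale with CCG-1423 (adjusted p = 6.41e-12), to 18.3 ± 1.63, against 167 ± 15.6 with vehicle (SD, n = 3 each). With vismodegib its log2 fold change against vehicle was -0.32 ± 0.14, with an unadjusted limma p of 0.0364 and an adjusted p of 0.230, and 29.9% of genes had groups that did not overlap in that comparison. Set directly against vismodegib, CCG-1423 gave -2.80 ± 0.14 (adjusted p = 2.44e-11). Its relatives Mgst2 and Mgst3 fell with CCG-1423 too, to 31.0 ± 2.80 and 188 ± 6.68, against 94.2 ± 9.45 and 938 ± 44.4 with vehicle. Ptges rose, to 549.9 ± 24.3 with CCG-1423, against 169 ± 14.6 with vehicle.

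Scd1 was abundant in the cells, with 11582, 11298 and 11042 normalised counts with CCG-1423, 12883, 13196 and 13197 with vismodegib, and 13103, 12926 and 12793 with vehicle. All CCG-1423 libraries lay below all others. Groups did not overlap between CCG-1423 and vehicle for 85.8% of genes. Scd1 fell by 0.19 ± 0.03 on the log2 scale (adjusted p = 9.15e-06), a small step beside that of Scd2, which fell by 1.47 ± 0.05 to 31307 ± 2526 with CCG-1423, against 86777 ± 647 with vehicle. With vismodegib Scd1 differed from vehicle by 0.02 with a 95% interval of -0.04 to 0.08 on the log2 scale. When libraries were instead scaled to total reads, Scd1 rose by 0.10 with vismodegib (adjusted p = 0.0238), a scaling that moved the median of all genes to 0.09. Beside it, the ribosomal precursor Rn45s took 6.62% to 10.4% of reads with CCG-1423, 1.39% to 1.58% with vismodegib and 5.81% to 6.70% with vehicle. Its part in these values was not tested. Scd3 had 2.23, 11.2 and 3.71 with CCG-1423, 10.1, 6.77 and 6.13 with vismodegib, and 9.80, 9.58 and 15.8 with vehicle. Its CCG-1423 and vehicle groups overlapped, through the second CCG-1423 library. Scd3 reached 10 normalised counts only at 11.2, 10.1 and 15.8, so it just passed the filter. Without any 1 of those libraries Scd3 was not tested. Its fall of 1.12 ± 0.47 with CCG-1423 (adjusted p = 0.0350) was lost by edgeR (adjusted p = 0.0788) and by DESeq2 (adjusted p = 0.132), and also without the first or the third CCG-1423 library (adjusted p = 0.159 and 0.0961).

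Dgat2 had 348, 333 and 314 with CCG-1423, 254, 250.4 and 268 with vismodegib, and 256, 259 and 267 with vehicle. It rose by 0.34 ± 0.07 on the log2 scale with CCG-1423 (adjusted p = 0.00039) and differed by -0.02 with vismodegib, with a 95% interval of -0.17 to 0.14. Dgat1, the other triglyceride synthase, fell with CCG-1423 to 715 ± 38.6, against 1045 ± 30.0 with vehicle. Soat1 had 564, 517 and 539 with CCG-1423, 555, 605 and 627 with vismodegib, and 654, 562 and 625 with vehicle. The CCG-1423 and vehicle groups overlapped by a narrow margin, and a fall of 0.18 ± 0.07 (adjusted p = 0.0210) was lost with scaling to total reads (adjusted p = 0.0560) and without vehicle library 1, vehicle library 3 or CCG-1423 library 2 (adjusted p = 0.109, 0.0638 and 0.0728). Awat2 had 17.9, 14.7 and 27.8 with CCG-1423, 19.0, 12.6 and 8.17 with vismodegib, and 13.1, 14.9 and 10.2 with vehicle, with a log2 fold change of 0.59 ± 0.34 for CCG-1423 that was not called (adjusted p = 0.113). Far2 was sparse in the cells, with 5.59, 11.2 and 9.27 with CCG-1423, 21.2, 10.6 and 13.3 with vismodegib, and 13.9, 7.45 and 9.05 with vehicle, and no difference from vehicle was called. Its relative Far1 fell to 1258 ± 22.3 with CCG-1423 and to 3474 ± 126 with vismodegib, against 3793 ± 45.4 with vehicle. Elovl3 was at 0 with both compounds and had 1 read in 1 vehicle library, Mc5r had 1 read in 1 CCG-1423 library, and Cidea had at most 2 reads in any library, so for these 3 genes no difference was detectable.

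The compounds differed in 3 of the 7 members tested, where 84.8% of genes were called. CCG-1423 gave lower Mgst1 and Scd1 (by 0.21 ± 0.03 on the log2 scale, adjusted p = 3.66e-06) and higher Dgat2 (by 0.36 ± 0.07, adjusted p = 0.00024) than vismodegib. For Soat1 the difference of CCG-1423 from vismodegib was -0.14 with a 95% interval of -0.29 to 0.00416 and adjusted p = 0.0654. It passed the threshold by edgeR (adjusted p = 0.0492) and with scaling to total reads (adjusted p = 0.0183), but not by DESeq2 (adjusted p = 0.0866). For Awat2 it was 0.59 (-0.12 to 1.31), for Far2 -0.72 (-1.50 to 0.06) and for Scd3 -0.57 (-1.56 to 0.42). The intervals of these 3 sparse genes are wide, and a p above the threshold does not show that the compounds act alike on them. On leaving out 1 library, limma called Awat2 higher without vismodegib library 1 and Far2 lower without vismodegib library 2.

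The lipid lists in the cells held calls in both directions. With CCG-1423, of 23 genes of fatty acid synthesis, desaturation and elongation 9 rose and 12 fell, beside 42.8% and 42.6% of all genes. Fasn, the fatty acid synthase, rose by 0.51 ± 0.04 and Acsl1, an acyl-CoA synthetase, by 1.29 ± 0.05, while the elongase Elovl6 fell by 1.50 ± 0.05. Of 11 ester synthesis genes 6 rose and 3 fell, and of 10 droplet proteins and lipases 4 rose and 6 fell, with the lipases Lipe and Pnpla2 up by 1.78 ± 0.09 and 1.12 ± 0.04 and Mgll down at -1.45 ± 0.07. Of 12 lipid regulators 6 rose and 5 fell, with Ppargc1b at 2.76 ± 0.09 and Srebf1, the regulator of lipid synthesis, at -0.21 ± 0.03. Of 9 sebaceous regulators and markers 3 rose and 5 fell, with Gata6, a factor of the sebaceous duct, at 1.53 ± 0.09 and Prdm1, described in mouse sebocytes, at -1.49 ± 0.17. With vismodegib, 2 genes of the fatty acid list rose and 4 fell, beside 1.58% and 3.92% of all genes, and the 3 desaturases Fads1, Fads2 and Fads3 fell by 0.23 ± 0.03, 0.28 ± 0.03 and 0.22 ± 0.03. Agrp, the 1 melanocortin gene tested, fell to 220.3 ± 17.0 with CCG-1423, against 719 ± 34.0 with vehicle. Gli1 was at 319 to 409 with CCG-1423, 229 to 272 with vismodegib and 1100 to 1304 with vehicle.

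Sensitive tumour 4 lay within the range of the resistant tumours for 6 of the 10 members, Scd1, Scd3, Far2, Awat2, Soat1 and Mc5r. It lay within that of sensitive tumours 1 to 3, a range of fewer tumours, for Elovl3 alone. Elovl3 and Mc5r had few reads. The same share was not computed over all genes, and over all genes tested this tumour fell beside the resistant ones on the first principal component. The count is therefore not read as a trait of the members. The 7 members tested moved in different directions, so their mean level is a weak summary. Ranked by Pearson correlation with the mean of the members' scaled log2 values, the 5 most alike genes were Ascc3 (0.979), 4930579G24Rik, Ctdspl2, Rad17 and Hnrnpl over the 8 tumours, and Syn3 (0.976), Spata33, Clint1, 2310015D24Rik and Rabl2 over the 9 cell libraries. These likenesses were picked from all genes tested, over few libraries, and are given as a description.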

How the data were processed

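Both tables held normalised counts, and the signal values in them were made by the authors, who deposited read counts divided by a size factor per library in each table separately. Dividing by each library's smallest step gave whole reads, to within 0.01 read, for 100% of values. Per the submitters' processing notes TopHat, DESeq and the build mm9 were used, and no source names the gene counter, annotation or strand setting. Values were fitted as log2(normalised count + 1) with limma 3.58.1 in R 4.3.3, with a variance trend, over genes at 10 or more in at least 4 tumours (3 without sensitive tumour 4) or 3 cell libraries. P-values were two-sided and adjusted by Benjamini-Hochberg over all genes tested at 0.05, and fold changes understate those of low genes. The 9 cell libraries were fitted together. Alternatives were pseudocounts of 0.5 and 5, no filter, edgeR 4.0.16 and DESeq2 1.42.0 on the recovered reads, scaling to total reads, replicate number or Y-linked reads as a term, and leaving out each library. Fits were tested on simulated data. For pairs of replicates, chi-square over its degrees of freedom was 13.5 to 183 (tumours) and 1.84 to 40.9 (cells), above the counting noise of 1 library deposited again, which does not show separate animals or cultures. The members and gene lists were chosen with earlier results of these data known. Named genes are all members and, of each list, up to 4 called genes of smallest p per direction, with the 5 genes most alike in each table; markers named for a check of cell type were chosen after their values were seen. A planned comparison of protein sequences was not made.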

Additional observations from a re-analysis of the deposited data

Results flagged for a closer look

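In 20 groups of 4 tumours, 1 for each member and group, a single tumour lay far from the other 3 in 2 cases by Dixon's criterion at the 95% level. For normally distributed values chance gives about 1 in 20. Both cases are counts of few reads, for which that rate does not hold, so no conclusion is drawn from their number. Resistant tumour 4 had 0.698 normalised counts of Elovl3 and the other 3 resistant tumours 0, a distance of 1 read. Resistant tumour 1 had 6.995 normalised counts of Cidea, from 8 reads, and the other 3 had 1 read each.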

How the results depend on the processing

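Over 8 tumours 17 genes were called. The count was 0 with a pseudocount of 0.5, by edgeR, with scaling to total reads and with the replicate block, and 1632 by DESeq2. With Y-linked reads as a term, resistant tumours were set against sensitive tumour 4 alone, since all Y-linked reads lay in the other sensitive tumours. Only effect sizes are given for that term. Leaving out 1 tumour gave 0 to 6184 genes and 0 to 4 members, all of the calls with sensitive tumour 4 left out. Counts of members called without that tumour include Cidea, which passed the filter only through the sensitive tumours. Without sensitive tumour 4 the count was 6184 genes and 3859 to 6244 on leaving out 1 more tumour, with 3859 without sensitive tumour 2. No pairing by replicate number was seen: correlations of same-numbered deviations were -0.15 to 0.12 in tumours and -0.04 to 0.04 in cells. In tumours the deviations were taken from a mean that held sensitive tumour 4, so they cannot exclude pairing. With the replicate block Scd3 without sensitive tumour 4 had -1.01 and adjusted p = 0.0504, 3 members were called in place of 4, and the block changed no other member call. Scaling to total reads moved the median of all genes without sensitive tumour 4 to -0.13, against 0.02. For CCG-1423 against vehicle 3 to 5 members were called on leaving out 1 library, with 3 without vehicle library 3 or CCG-1423 library 2. In those fits, and without vismodegib library 1, 6 members were tested, since Scd3 no longer passed the filter. For vismodegib against vehicle 3229 genes and 1 member, Scd1, were called with scaling to total reads, and 325 to 1532 genes, with 0 members, on leaving out 1 library. These were 375, 358, 392, 380 and 325 genes without vehicle 1, 2 or 3 or vismodegib 2 or 3, and 1532 without CCG-1423 library 1. For CCG-1423 against vismodegib 3 to 5 members were called on leaving out 1 library, 5 without vismodegib library 1. The direction of uncalled members turned in some fits. Over 8 tumours the log2 fold change of Dgat2 was -0.056 by edgeR, -0.056 by DESeq2, -0.10 with total reads and -0.12 to 0.24 on leaving out 1 tumour. Scd1 was -0.065 with total reads and -0.49 to 0.34 on leaving out 1 tumour. With the Y-linked term, and so against sensitive tumour 4 alone, Dgat2 was -0.69, Scd1 -0.24 and Soat1 -0.16. Without sensitive tumour 4 Scd1 was -0.0034 with total reads and -0.39 to 0.43 on leaving out 1 tumour. Far2 with CCG-1423 ran from -0.39 to 0.053 on leaving out 1 library. With vismodegib Awat2 was 0.0086 with a pseudocount of 5, 0.029 by edgeR, 0.044 by DESeq2 and 0.074 with total reads, Dgat2 0.063 and Soat1 0.040 with total reads, and on leaving out 1 library they ran from -0.28 to 0.28, -0.048 to 8.42e-05 and -0.10 to 0.0090. The causes were not tested. Differences between genes under about 3 reads were not detectable at this depth.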
